A study of Mus musculus with 48 samples.

Results

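Methylated DNA was captured at 45 regions in or beside 8 genes that mark tuft cells, out of 95882 regions measured along the mouse intestine. The genes were Pou2f3, Gfi1b, Trpm5, Dclk1, Il25, Il17rb, Alox5ap and Ptgs1. A region belonged to a gene when it overlapped the RefSeq gene (mm10) or lay within 5000 bp of it on either side. The 8 genes were taken up with a difference between mouse models in the colon, at Pou2f3, already known, so that comparison is described here without a test. The intestine of 7 germ-free mice (GermFree), raised without microbes, and 5 conventionalised mice (ConvR) was sampled in the duodenum, jejunum, ileum and colon. Each of the 12 mice gave 1 library per section, 48 libraries in all, and the mouse was the replicate. The labels name no strain, age or sex for the mice. They call the tissue intestine, with no further cell fraction named.

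Tuft cells are rare chemosensory cells scattered through the intestinal epithelium. The transcription factor Pou2f3 is required for their formation. On sensing luminal metabolites such as succinate from protists they open the cation channel Trpm5 and release the cytokine Il25 together with cysteinyl leukotrienes, and group 2 innate lymphoid cells, which carry the Il25 receptor subunit Il17rb, answer with Il13, which drives more stem cell progeny into the tuft and goblet cell fates. In this assay DNA was sheared, and fragments with methylated CpG sites were bound by a methyl-CpG-binding domain and sequenced. A level is given as normalised CPM, a region's counts scaled to the size of its library, which depends on how methylated a region is, how many CpG sites it holds and how wide it is. No RNA was measured, so the share of tuft cells in the tissue was not seen, and a change in the mix of cells and a change in methylation within a cell type cannot be told apart. Tuft cells are few among the cells sampled, so the levels describe the whole tissue.

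Of the 45 regions, 43 overlapped their gene and 2 lay outside it. RefSeq promoter windows of GRCm38.p6, from 250 bases before to 50 bases after a start, were at hand for 5 of the 8 genes (6 windows), and 0 of the 6 was overlapped by any captured region. The regions of Pou2f3, Alox5ap and Il25 could not be set against a start, which leaves 34 of the 45. Across all 32851 windows, 8.57% were overlapped, so 0 of 6 is near that background. The share was 8.47% with 0 to 5 CG pairs, 19.3% with 6 to 15, and 1.1% among the 10841 windows with 16 or more. The Gfi1b and Ptgs1 windows and the Dclk1 window with 6 CG pairs belong to the group with 19.3%. The windows below were chosen because they show the range from a CpG-dense to a CpG-poor start. Capitals mark each CG pair, the site that can be methylated and that the capture protein binds when it is. CG reads the same on both strands, and 94.6% of all windows hold at least 1. The windows lie at chr14:30008847-30009146 (Il17rb, minus strand), chr2:28621933-28622232 (Gfi1b, minus strand) and chr7:143094593-143094892 (Trpm5, minus strand), and are written 5′ to 3′ along the gene.
Il17rb: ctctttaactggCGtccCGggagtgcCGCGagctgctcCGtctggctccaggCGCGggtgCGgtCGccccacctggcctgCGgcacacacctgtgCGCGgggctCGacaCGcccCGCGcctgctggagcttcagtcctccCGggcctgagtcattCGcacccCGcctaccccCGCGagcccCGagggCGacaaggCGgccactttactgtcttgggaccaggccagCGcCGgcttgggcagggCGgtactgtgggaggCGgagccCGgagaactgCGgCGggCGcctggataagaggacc
Gfi1b: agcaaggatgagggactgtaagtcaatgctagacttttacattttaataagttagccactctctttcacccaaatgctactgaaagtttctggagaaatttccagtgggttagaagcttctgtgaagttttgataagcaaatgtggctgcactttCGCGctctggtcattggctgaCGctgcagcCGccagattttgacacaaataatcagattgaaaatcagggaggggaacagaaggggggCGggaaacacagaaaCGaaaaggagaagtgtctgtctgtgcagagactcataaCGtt
Trpm5: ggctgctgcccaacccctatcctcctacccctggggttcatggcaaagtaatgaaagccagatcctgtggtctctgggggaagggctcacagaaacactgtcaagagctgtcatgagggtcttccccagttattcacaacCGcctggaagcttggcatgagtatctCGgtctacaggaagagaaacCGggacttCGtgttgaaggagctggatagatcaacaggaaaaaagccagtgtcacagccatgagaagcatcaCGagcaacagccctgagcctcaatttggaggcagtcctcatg

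The Il17rb window holds 32 CG pairs, more than 90.5% of all windows, and its nearest captured region begins 2535 bp away. The Gfi1b window holds 7 CG pairs, and a captured region lies 1073 bp from it, the smallest gap among the 6 windows. The Trpm5 window holds 5 CG pairs, with the nearest captured region 5606 bp away. The Dclk1 windows (5 and 6 CG pairs) and the Ptgs1 window (6 CG pairs) were likewise 3297 to 6496 bp from the nearest region.

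**Figure D1:**
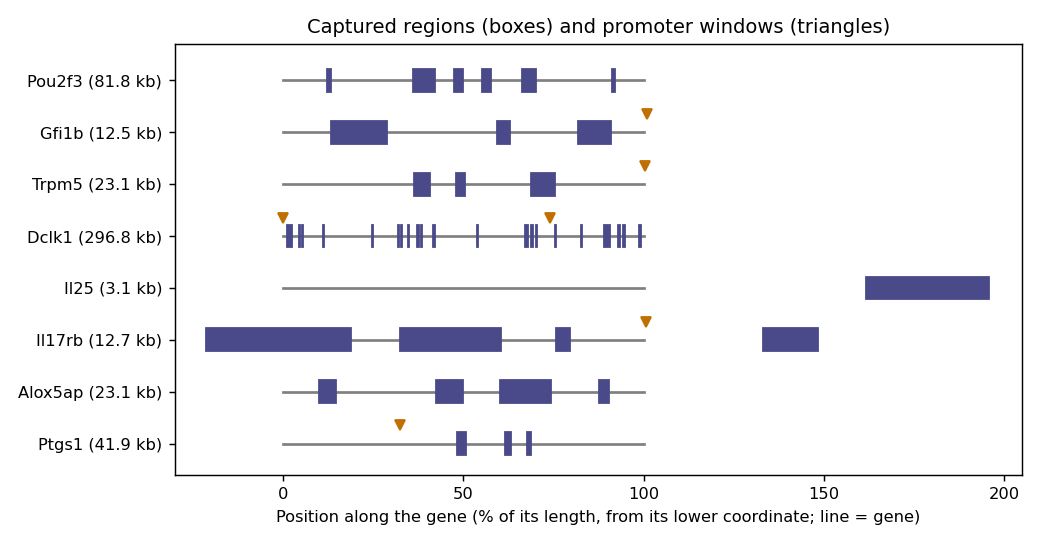
Position of the 45 captured regions along the 8 genes, as percent of the gene's length from its lower coordinate. Boxes are regions, lines are genes, with the length in kb beside each name, and triangles are the 6 promoter windows; 43 boxes touch their gene and no box touches a triangle.

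Dclk1, a microtubule-associated kinase used as a marker of tuft cells, is the longest of the genes (296766 bp) and held 21 of the 45 regions. Pou2f3 (81829 bp) held 6, Il17rb (12729 bp) and Alox5ap (23150 bp) held 4 each, Trpm5, Ptgs1 and Gfi1b held 3 each, and Il25 held 1. Per 10 kb of gene this came to 0.708 regions at Dclk1 and 0.733 at Pou2f3, against 2.39 at Gfi1b and 3.14 at Il17rb. The widest regions were 5120 bp at Il17rb, 4907 bp at Pou2f3 and 4895 bp at Dclk1. Per length the levels were close together: the 45 regions ran from 4.55 to 9.05 CPM per kb, and the median of all 95882 regions was 6.22 CPM per kb (quartiles 5.18 and 7.95). The lowest density was that of the 4895 bp region of Dclk1 and the highest that of a 423 bp region of Gfi1b. The level of the region with the highest mean in each gene, called its lead region here, therefore follows its width.

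Regions at the edge of the 5000 bp limit were as follows. The Il25 region (chr14:54937775-54938850) lay 1938 bp from the gene, inside the neighbouring gene Cmtm5, and 1 Il17rb region lay 4210 bp from the gene, inside Chdh. Just outside were a 7031 bp region 5107 bp from Il17rb with a mean of 35.97 CPM, a region 5442 bp from Alox5ap with 3.84 CPM, and a region 5503 bp from Dclk1 with 9.10 CPM. The lead region of Il17rb also overlaps the gene Actr8, a Dclk1 region overlaps the long non-coding RNA gene Gm9831, and a Gfi1b region overlaps Gm52548, so these regions cannot be assigned to 1 gene alone.

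The libraries held 1007560 to 3033782 counts each (median 2122529), and the median region held 7 to 23 counts in a library. A single region therefore carries a wide counting error. In the leading component of the differences among the 4 libraries of a mouse, which took 11% of that variance over 44583 regions, the colon library scored highest in 11 of 12 mice. In ConvR mouse 3 the jejunum library scored highest instead. Section results that passed the test in a fit are therefore also given without that mouse. Its jejunum and colon libraries also enter the comparisons of models in those sections.

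Between GermFree and ConvR mice, none of the tuft cell gene regions passed an adjusted p of 0.05 in the duodenum, jejunum or ileum by edgeR's quasi-likelihood test. The regions that passed the count filter numbered 36 in the duodenum, 42 in the jejunum and 43 in the ileum. The background share of regions called was 0.463% in the duodenum, 0.343% in the jejunum and 0.365% in the ileum, so 0 calls among so few regions is near that background. At an unadjusted p under 0.05 stood 4, 3 and 2 of them in the duodenum, jejunum and ileum, against 6.99%, 5.36% and 5.12% of all regions tested. The median log2 difference of the regions was 0.02 in the duodenum, -0.02 in the jejunum and -0.01 in the ileum, and that of all regions was within 0.01 of 0 in each of them. With the 3 small intestinal sections of a mouse summed, all 45 regions were tested and 0 passed (background 0.433%), with 2 at an unadjusted p under 0.05. There the log2 differences ran from -0.27 to 0.33, with 24 regions above 0 and 21 below. DESeq2 called 0 of them in these comparisons as well.

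**Figure D2:**
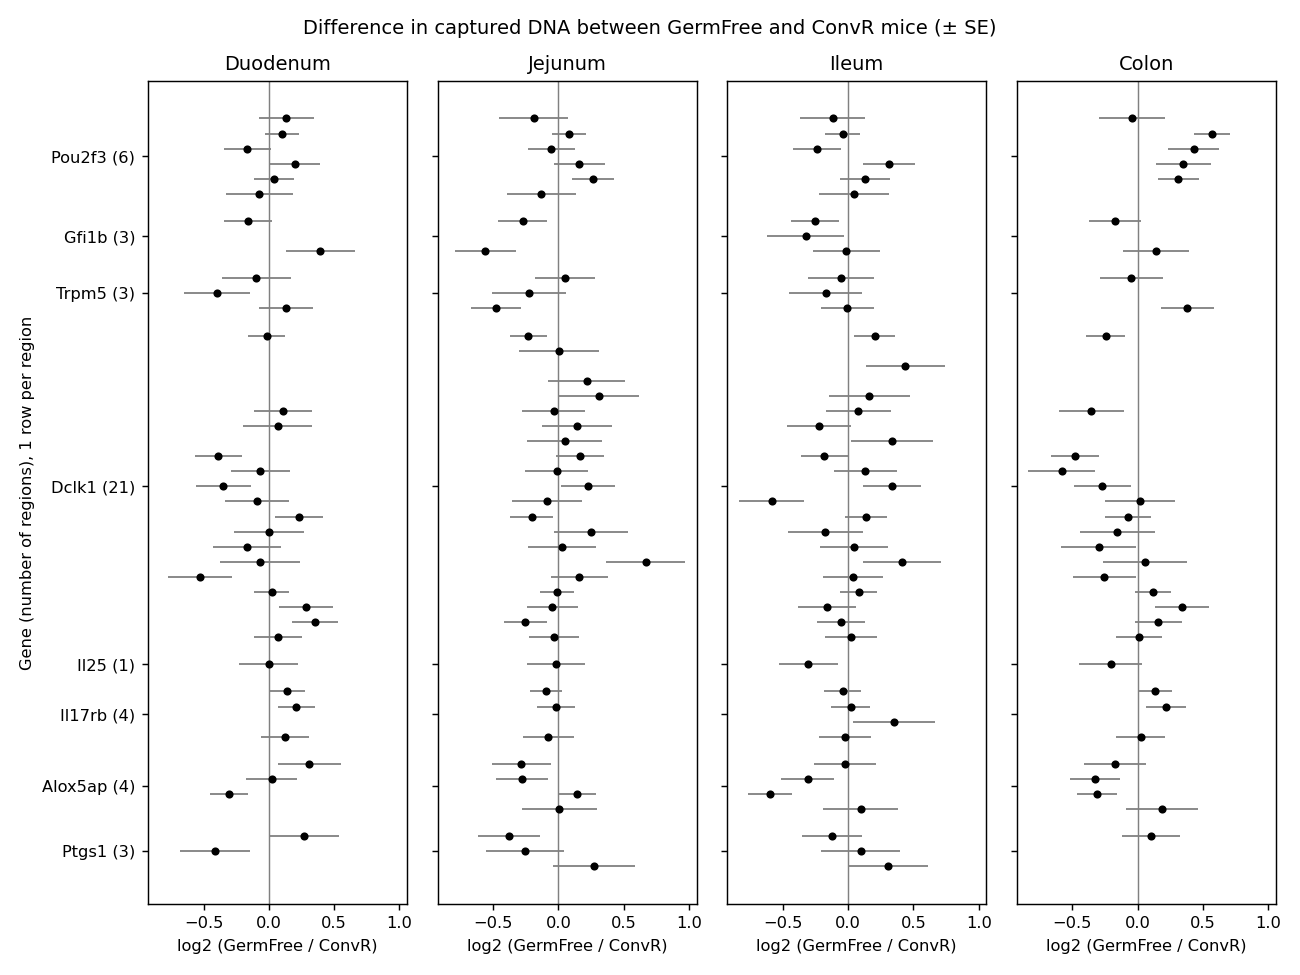
Log2 difference in captured DNA, GermFree over ConvR, with its SE, for every region that was tested in each section (rows grouped by gene; regions under the count filter are left blank). The points scatter on both sides of 0 for most genes, and in the colon 4 of the 5 Pou2f3 regions tested lie above 0.

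Pou2f3, the master transcription factor of tuft cells, showed the colon difference for which the genes were taken up. Its lead region (chr9:43153453-43158359, inside the gene) had 21.4 to 31.4 CPM in the GermFree colon, with a median of 27.1. In the ConvR colon it had 15.5, 20.4, 15.1, 18.8 and 20.3 CPM. All 7 GermFree values were above all 5 ConvR values, and the means were 27.0 ± 3.31 CPM in GermFree mice and 18.01 ± 2.57 CPM in ConvR mice (SD, n = 7 and 5). The log2 difference was 0.57. Of the 33 tuft cell gene regions tested in the colon, 1 was called, this region, beside a background of 0.542%. Since this comparison chose the genes, nothing is read from that count. The difference was 0.43 without ConvR mice 1 and 3, whose colon levels were the lowest of the 5.

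In the other sections the same region had similar levels in both models. GermFree mice averaged 23.4 ± 3.79 CPM in the duodenum, 23.3 ± 3.95 CPM in the jejunum and 22.5 ± 3.85 CPM in the ileum (SD, n = 7). ConvR mice averaged 21.4 ± 3.87 CPM in the duodenum, 21.8 ± 4.03 CPM in the jejunum and 22.7 ± 3.09 CPM in the ileum (SD, n = 5). The ranges of the groups overlapped in each of these sections. Whether the model difference at this region changed along the sections is not tested here, since the colon values chose the genes. Counted over the 12 mice without regard to model, the lead region had 22.6 ± 3.79 CPM in the duodenum, 22.7 ± 3.87 in the jejunum, 22.6 ± 3.40 in the ileum and 23.3 ± 5.48 in the colon (SD, n = 12). These means join opposite directions, since the colon value was above that of the duodenum in 6 of 7 GermFree mice and in 1 of 5 ConvR mice.

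**Figure D3:**
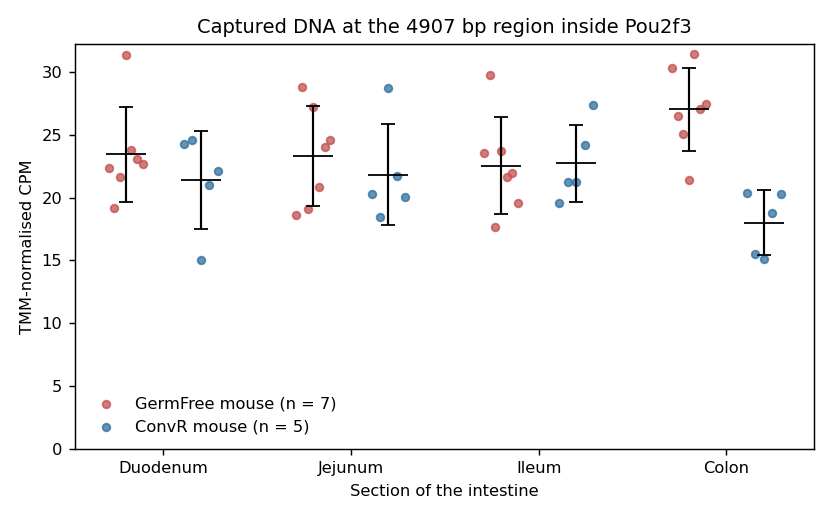
Normalised CPM of the 4907 bp region inside Pou2f3 in each mouse, by section, GermFree left and ConvR right; bars are the mean and SD of 7 and 5 mice. The 7 GermFree colon values (21.4 to 31.4 CPM) lie above the 5 ConvR colon values (15.1 to 20.4 CPM), while the groups overlap in the other sections.

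Of the 6 Pou2f3 regions, 5 were tested in the colon. Their log2 differences ran from -0.04 to 0.57, the highest that of the lead region, with 4 above 0. In the ileum, jejunum and duodenum, the log2 differences of the 6 regions ran from -0.24 to 0.31, with the smallest adjusted p at 0.897 (edgeR). Over the 48 libraries, the 15 pairs of Pou2f3 regions had a median correlation of log2 CPM of 0.082. The median was 0.0004 for 246 pairs within 1 gene and -0.019 for 744 pairs of different genes. Group means were not taken out, so differences between models and sections, the colon difference among them, remain in these values. These pairs share libraries and depth, and the correlations are a description only.

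A second Pou2f3 region (chr9:43178090-43181249, inside the gene) differed between colon and ileum in the fit with the mouse as a block. That fit called 2 of the 45 regions, this one and 1 of Il17rb, near the 3.6% of all regions called. Nothing about the tuft cell genes is read from that count. Without regard to model it had 11.3 to 20.4 CPM in the colon (median 16.4) and 5.62 to 20.7 CPM in the ileum (median 12.1). It averaged 16.1 ± 2.77 CPM in the colon and 11.97 ± 3.95 CPM in the ileum (SD, n = 12), and was higher in the colon in 10 of 12 mice. The log2 difference was 0.39 ± 0.12 (SE), with an adjusted p of 0.0376 with the mouse as a block and 0.0560 without it (edgeR). In GermFree mice alone the log2 difference was 0.49, with an adjusted p of 0.04998 (edgeR, no block). In ConvR mice alone it was 0.29, with an adjusted p of 0.769. The averaged contrast did not choose the genes, but it draws on colon values of Pou2f3, the gene with the known colon difference. The jejunum (14.0 ± 2.23 CPM) and duodenum (15.5 ± 2.49 CPM) lay between. Without ConvR mouse 3 the blocked value was 0.35 with an adjusted p of 0.0803, and in 5 of the 12 blocked fits that each left out 1 mouse the adjusted p stayed below 0.05.

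By Spearman's rho over the 48 libraries, the 4 regions of other genes most like the Pou2f3 lead region belonged to Hsd17b4 (0.599), Srrm1 (0.597), Insyn1 (0.592) and Gm51569 (0.591). Of the 95882 regions ranked, only those with a gene within 5000 bp were taken, 1 per gene, and member regions were left out. The 4 head a long ranking, so no likeness is read from the size of these values. None of the 4 genes is in the lists of tuft cell genes used here. The libraries share depth and section, and no test is attached.

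Gfi1b, a zinc finger repressor of blood cell lineages that is also made in tuft cells, held 3 regions. Its lead region (chr2:28611136-28613049) averaged 9.53, 8.98, 10.1 and 8.80 CPM in the duodenum, jejunum, ileum and colon of GermFree mice, against 10.6, 10.9, 11.9 and 9.96 CPM in those of ConvR mice. The GermFree mean was lower in every section, and the ranges overlapped in each. Summed over the small intestine the log2 difference was -0.23 ± 0.11 (SE), with an adjusted p of 0.940 (edgeR). The region next to the Gfi1b promoter window (chr2:28619717-28620860) had a log2 difference of -0.56 in the jejunum, with an adjusted p of 0.840. Over the 8 groups of model and section the summed level of Gfi1b ran from 18.1 CPM (ConvR duodenum) to 23.6 CPM (ConvR ileum).

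Trpm5, the calcium-activated cation channel through which taste receptor signalling depolarises tuft cells, held 3 regions inside the gene. In the jejunum its lead region (chr7:143087448-143088987) had 5.78 to 10.9 CPM in GermFree mice, with a median of 7.56. In ConvR mice it had 10.8, 7.79, 13.2, 12.8 and 10.9 CPM. The groups overlapped, with means of 7.76 ± 1.61 CPM in GermFree mice and 11.1 ± 2.14 CPM in ConvR mice (SD, n = 7 and 5). The log2 difference of -0.48 ± 0.19 (SE) had an unadjusted p of 0.0146 and an adjusted p of 0.813 (edgeR). Its 95% interval, by a normal approximation and not adjusted for the number of regions, ran from -0.86 to -0.10. In the 12 fits that each left out 1 mouse, ConvR mouse 3 among them, the log2 difference was -0.61 to -0.41, and 0 passed. In the colon, the comparison without a test, the same region averaged 10.6 ± 1.22 CPM in GermFree mice and 7.98 ± 1.43 CPM in ConvR mice, the opposite order, and the groups overlapped there too.

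The 21 regions of Dclk1 summed to 166 CPM in the GermFree colon, the lowest of the 8 groups, and to 175 CPM in the ConvR colon, the highest. The lead region (chr3:55506840-55511734) averaged 22.8, 21.2, 22.3 and 24.0 CPM in the duodenum, jejunum, ileum and colon of GermFree mice, against 21.95, 21.6, 21.7 and 22.2 CPM in those of ConvR mice. Among the small intestinal comparisons between models, the log2 difference of single Dclk1 regions reached -0.58 in the ileum (chr3:55402028-55402847, adjusted p 0.907) and 0.67 in the jejunum (chr3:55466086-55466643, adjusted p 0.890). Both are narrow regions with few counts, 0 to 29 in any library. The smallest adjusted p at Dclk1 in a comparison of sections was 0.105 (edgeR), for a 695 bp region with a log2 difference of -0.55 between colon and ileum.

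Il25, the alarmin cytokine that tuft cells release to lymphoid cells, had 1 region near it, which lies inside Cmtm5. In the ileum the region had 4.41 to 14.9 CPM in GermFree mice (median 7.10) and 10.1, 8.42, 10.6, 9.17 and 8.12 CPM in ConvR mice. The values of ConvR mice lay within the range of GermFree mice, whose highest value was that of GermFree mouse 2. The log2 difference was -0.30, with an adjusted p of 1.0 (edgeR). Over the 12 mice the colon had 6.38 ± 1.82 CPM and the ileum 8.35 ± 2.91 CPM (SD, n = 12), a log2 difference of -0.32 with an adjusted p of 0.356. Between the lowest and the highest of the 8 groups, this single region differed by 1.53 times.

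Il17rb, the receptor subunit that binds Il25, held 4 regions. Its lead region (chr14:29993458-29998577), which spans the gene's 3′ end and part of Actr8, had 20.8 to 35.2 CPM in the colon (median 26.1) and 14.4 to 29.8 CPM in the ileum (median 20.9). It averaged 26.2 ± 3.73 CPM in the colon and 21.3 ± 3.83 CPM in the ileum (SD, n = 12). The colon value was higher in 10 of 12 mice. The log2 difference was 0.30 ± 0.09 (SE), with an adjusted p of 0.0346 with the mouse as a block and 0.0699 without it (edgeR). Without ConvR mouse 3 the blocked value was 0.25 with an adjusted p of 0.123, and 5 of the 12 blocked fits that left out 1 mouse kept the adjusted p below 0.05. The jejunum (25.6 ± 3.95 CPM) was close to the colon and the duodenum (22.3 ± 3.96 CPM) to the ileum.

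**Figure D4:**
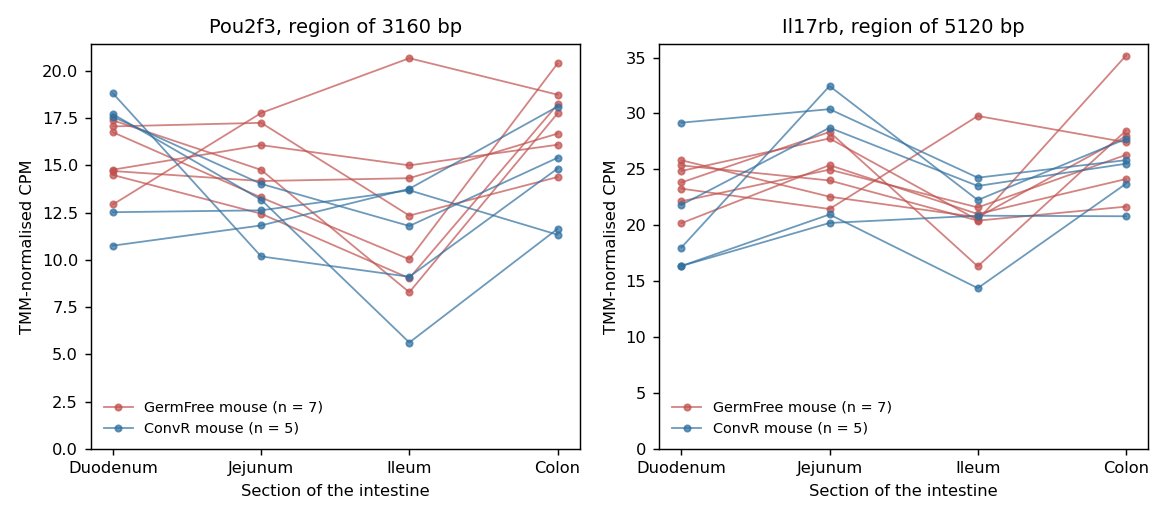
Normalised CPM along the intestine of each mouse (1 line per mouse) at the 3160 bp region of Pou2f3 and the 5120 bp region at the end of Il17rb. At both regions the colon value lies above the ileum value in 10 of 12 mice, and the lines of the models intermingle.

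Between models the Il17rb lead region overlapped in every section. In the duodenum it averaged 23.6 ± 1.98 CPM in GermFree mice and 20.3 ± 5.42 CPM in ConvR mice, in the jejunum 24.9 ± 2.53 CPM in GermFree and 26.5 ± 5.61 CPM in ConvR mice, and in the ileum 21.5 ± 4.05 CPM in GermFree and 21.1 ± 3.95 CPM in ConvR mice (SD, n = 7 and 5). The smallest adjusted p of any Il17rb region in these sections was 0.824 (edgeR).

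Alox5ap, the membrane protein that presents arachidonic acid to 5-lipoxygenase in the making of leukotrienes, held the tuft cell region with the smallest p between models outside the colon. In the ileum its lead region (chr5:149278958-149282192, inside the gene) had 6.62 to 17.7 CPM in GermFree mice, with a median of 11.99. In ConvR mice it had 26.3, 22.6, 16.3, 14.6 and 15.8 CPM. Only GermFree mouse 3, at 17.7 CPM, was above any ConvR mouse. The means were 11.9 ± 3.26 CPM in GermFree mice and 19.1 ± 5.08 CPM in ConvR mice (SD, n = 7 and 5), a log2 difference of -0.60 ± 0.17 (SE). The adjusted p was 0.144 (edgeR; unadjusted 0.00062), so the difference did not pass. Without GermFree mouse 3 it passed, at -0.72 with an adjusted p of 0.0219, and in the other 11 fits that left out 1 mouse the adjusted p was 0.0573 to 0.832.

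In the duodenum the Alox5ap region averaged 15.6 ± 3.04 CPM in GermFree mice and 20.7 ± 4.01 CPM in ConvR mice (adjusted p 0.692), and in the jejunum 17.2 ± 2.42 CPM in GermFree mice and 15.8 ± 1.37 CPM in ConvR mice. With the small intestine summed per mouse, the log2 difference was -0.25 ± 0.09 (SE), with an adjusted p of 0.646 (edgeR). In the colon, given without a test, it averaged 14.2 ± 1.77 CPM in GermFree mice and 17.7 ± 1.82 CPM in ConvR mice. The 3 other Alox5ap regions had log2 differences of -0.31 to 0.10 in the ileum.

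**Figure D5:**
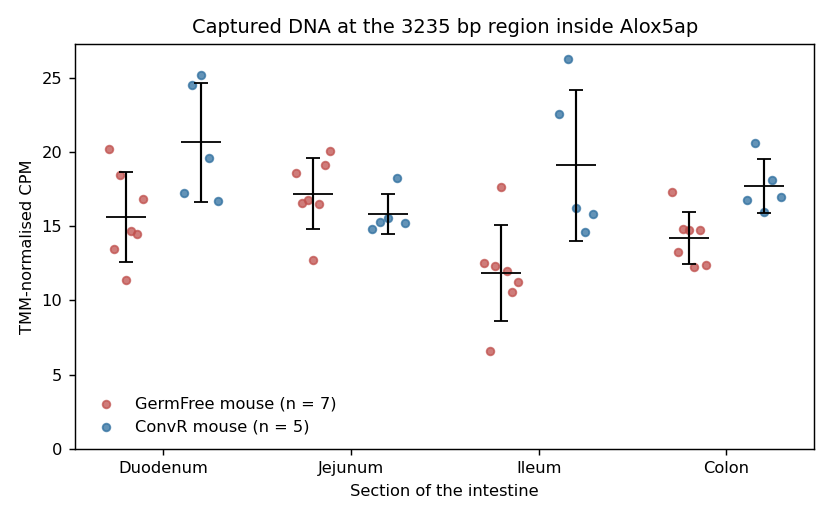
Normalised CPM of the 3235 bp region inside Alox5ap in each mouse, by section, GermFree left and ConvR right; bars are the mean and SD of 7 and 5 mice. In the ileum 6 of the 7 GermFree values lie below all 5 ConvR values, and the difference did not pass the test across regions.

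Ptgs1, the cyclooxygenase that opens the prostaglandin branch of the same fatty acid pathway, held 3 narrow regions (483 to 962 bp). Its lead region (chr2:36236971-36237932) averaged 6.02, 5.73, 7.05 and 7.597 CPM in the duodenum, jejunum, ileum and colon of GermFree mice, against 4.43, 7.70, 8.71 and 7.07 CPM in those of ConvR mice. The groups overlapped in every section. Between colon and duodenum its log2 difference was 0.41 ± 0.18 (SE), with an adjusted p of 0.268 (edgeR), and between ileum and duodenum 0.46 ± 0.17 with an adjusted p of 1.0. This region had 2 to 29 counts in a library, among the fewest of the lead regions.

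Between sections, 0 of the 45 regions were called in the fits without a block. The background was 1.21% of 95876 regions for colon against duodenum, 2.19% for colon against ileum, 0.00209% for ileum against duodenum and 0.0% for colon against jejunum, where 8269 regions had an unadjusted p under 0.05 and neither edgeR nor DESeq2 (0 regions) called any. With blocking by mouse, the background was 2.44% for colon against duodenum, 3.6% for colon against ileum, 0.00209% for ileum against duodenum and 0.338% for colon against jejunum. The 2 regions called, of Pou2f3 and Il17rb, were both in colon against ileum, and 2 of 45 is near that background. At an unadjusted p under 0.05 without the block stood 4 regions for colon against duodenum, 5 for colon against ileum, 3 for ileum against duodenum and 1 for colon against jejunum. That is 8.89%, 11.1%, 6.67% and 2.22% of the 45, against 13.2%, 15.2%, 4.75% and 8.62% of all regions. The median log2 difference of the 45 regions was -0.03 for colon against duodenum and for colon against ileum, and that of all regions was within 0.01 of 0 in both.

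A wider list of 28 tuft cell genes (taste signalling, leukotriene synthesis, structural markers) gave 27 matched genes, of which 20 had 57 regions. Between models edgeR called 0 of them in the duodenum, jejunum, ileum or colon, with 1 to 4 at an unadjusted p under 0.05 in a section (2.17% to 8.51% of those tested, against 5.12% to 7.44% of all regions). Between sections the list gave calls at Spib and Tas1r3, both lower in the colon: 1 of 57 regions for colon against duodenum, beside 1.21% of all regions, and 2 of 57 for colon against ileum, beside 2.19%. These shares are near those of all regions. Spib, an Ets factor of tuft, M and B cells (region chr7:44534455-44545437), averaged 46.3 ± 8.36 CPM in the colon, 56.9 ± 6.06 CPM in the duodenum and 56.4 ± 6.73 CPM in the ileum (SD, n = 12). It was lower in the colon than in the duodenum and than in the ileum in 11 of 12 mice each, with log2 differences of -0.28 and -0.29 (adjusted p 0.0439 and 0.0307, edgeR). Tas1r3, a taste receptor subunit (chr4:155853511-155858302), averaged 21.5 ± 3.35 CPM in the colon and 26.8 ± 3.78 CPM in the ileum, lower in 11 of 12 mice (log2 -0.31, adjusted p 0.0450). Without ConvR mouse 3 these stayed called, at adjusted p 0.0131 and 0.00360 for Spib and 0.0145 for Tas1r3. In fits that left out 1 mouse, 3 of 12 called Spib against the duodenum, 6 of 12 called it against the ileum, and 3 of 12 called Tas1r3. With the mouse as a block those counts were 10, 11 and 8 of 12. That fit called 2 of the 57 regions for colon against duodenum (background 2.44%) and 3 for colon against ileum (background 3.6%). The additions were Tas1r3 against the duodenum and Plcg2 against the ileum. Tas1r3 was lower in the colon than in the duodenum in 9 of 12 mice, at 21.5 ± 3.35 CPM in the colon and 26.3 ± 3.68 CPM in the duodenum (SD, n = 12; log2 -0.30, adjusted p 0.0404 blocked and 0.0781 unblocked, edgeR). Plcg2, a phospholipase (chr8:117634482-117635128), was lower in the colon than in the ileum in 10 of 12 mice. Its region had 3.87 ± 1.73 CPM in the colon and 5.86 ± 2.07 CPM in the ileum (SD, n = 12). The log2 difference was -0.63, with an adjusted p of 0.0429 blocked and 0.0647 unblocked (edgeR). The blocked adjusted p without ConvR mouse 3 was 0.0250 for Tas1r3 and 0.00971 for Plcg2, and of the 12 blocked fits that left out 1 mouse, 5 called Tas1r3 and 3 called Plcg2.

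Among 15 genes of the circuit that tuft cells act on (type 2 cytokines, their receptors and lymphoid factors), 13 had 85 regions. For colon against ileum 1 of the 85 was called (background 2.19%, and 3.6% with the mouse as a block). Rora, a nuclear receptor needed by group 2 innate lymphoid cells (chr9:69211258-69212933), was higher in the colon in 12 of 12 mice, at 11.1 ± 2.11 CPM, against 8.14 ± 1.56 CPM in the ileum (SD, n = 12; log2 0.43, adjusted p 0.0493). Without ConvR mouse 3 its adjusted p was 0.0885, and of the fits that left out 1 mouse, 2 of 12 called it without the block and 5 of 12 with it. Il5, the eosinophil growth factor (chr11:53721594-53722378), was the only region of the list called between models (1 of 76 tested in the ileum, background 0.365%): in the ileum GermFree mice had 2.66 to 6.001 CPM (median 4.14), and ConvR mice had 43.5, 4.04, 24.4, 4.17 and 9.41 CPM. The log2 difference of -1.61 (adjusted p 0.00266, edgeR) was -0.44 (adjusted p 1.0) without ConvR mice 1 and 3, the 2 with high values. For colon against duodenum 0 of the 85 regions were called without the block (12 at an unadjusted p under 0.05), and 2 with it (background 2.44%), at Gata3 and Il5. Gata3, a transcription factor of type 2 lymphocytes (chr2:9872822-9874541), was higher in the colon in 11 of 12 mice, at 10.6 ± 2.76 CPM in the colon and 7.14 ± 2.65 CPM in the duodenum (SD, n = 12; log2 0.57, adjusted p 0.0110 blocked and 0.0610 unblocked, edgeR). Its blocked adjusted p was 0.0177 without ConvR mouse 3, and 11 of 12 blocked fits that left out 1 mouse called it. At the Il5 region the colon had 5.54 ± 2.25 CPM and the duodenum 10.9 ± 14.3 CPM (SD, n = 12), with the colon lower in 5 of 12 mice (log2 -0.74, adjusted p 0.00643 blocked and 0.321 unblocked, edgeR). The blocked adjusted p was 0.166 without ConvR mouse 3, and 9 of 12 such fits called it.

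Regions of other cell types were counted beside these. Of 20 goblet, Paneth and enteroendocrine genes, 13 had 27 regions, with 0 called by edgeR in any comparison of models or sections and 0 to 2 at an unadjusted p under 0.05 (0.0% to 9.52% of those tested, against 4.75% to 15.2% of all regions). Of 20 leukocyte genes, 18 had 46 regions, with 1 called for colon against ileum, beside 2.19% of all regions: Itgam, an integrin of myeloid cells (chr7:128090073-128090628), at 3.42 ± 1.17 CPM in the colon and 5.63 ± 1.90 CPM in the ileum (SD, n = 12; log2 -0.69, adjusted p 0.0403, edgeR; 0.107 without ConvR mouse 3). It was lower in the colon in 10 of 12 mice, and of the fits that left out 1 mouse, 3 of 12 called it without the block and 7 of 12 with it. The part of leukocyte content in the section differences was not tested.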

How the data were processed

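Methylated DNA was captured with the MethylMiner kit and sequenced as single-end reads, per the labels' protocols. Per the submitters' processing notes, Trim Galore 0.3.7, cutadapt 1.4.2, MACS2 and featureCounts were applied on build mm10. No source names the aligner, what was done with duplicates, or which libraries the peaks were called on. The deposited table holds whole-number counts per region for 48 libraries, not normalised by the authors. The deposited peak list gives positions and 1 score per region, of a meaning not stated, used only as a filter in an alternative. The GermFree label stands in every region name; were the peaks called on GermFree libraries, regions stronger in ConvR mice could be missing.

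Regions were matched to RefSeq genes (assembly GRCm38.p6, the same coordinates as mm10) within 5000 bp of a gene. Of the 28 other tuft cell genes 27 matched by symbol. Counts were fitted over the whole table by quasi-likelihood F-tests in edgeR 4.0.16 under R 4.3.3, with TMM factors and the filter filterByExpr. P-values were adjusted over all regions tested (Benjamini-Hochberg, threshold 0.05). Models were compared within a section on 12 libraries, or on counts summed over the small intestine per mouse. Sections were compared on 48 libraries with 8 groups. Sections are paired by mouse, since each mouse gave all 4, and the fit with the mouse as a block is given where it changes the call of a listed region between sections. Deviations of libraries of 1 mouse had a median correlation of 0.0312 over 72 pairs. Levels are CPM with TMM factors over all 48 libraries, as mean and SD over mice. The second tool was DESeq2 1.42.0; limma 3.58.1 and data.table, version 1.17.8, gave support. Python 3.11.15, NumPy 2.4.6, pandas 2.3.3 and Matplotlib 3.10.9 made the annotation and figures. The edgeR steps were tested on simulated data with changes larger than the log2 differences given for the member regions. How well differences of that smaller size are recovered was not tested.

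The members and gene lists were chosen with earlier results of these data known. Every member region is counted. The lead region of each gene and each region that passed in a comparison are described in full, genes of the other lists are named when a region passed between models or sections, and the rule names the 5 regions most alike to the Pou2f3 lead region, of which 1 is not reported here. The regions of Pou2f3, Il17rb, Plcg2, Gata3 and Il5 that passed between sections in the blocked fit alone, and the values of other Dclk1 and Gfi1b regions that did not pass, were named after their values were seen. Alternatives were other scalings, DESeq2, no count filter, a score filter, blocks, 1 model alone, each mouse left out, ConvR mice 1 and 3 left out, and a limit of 20000 bp. Library totals alone, offsets fitted to abundance and blocked fits without each mouse were added after seeing the data.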

Additional observations from a re-analysis of the deposited data

Results flagged for a closer look

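Single mice stood far from the rest of their group at 7 of 72 groups of values, 9 regions in 8 groups each, where chance gives about 3.6. Of these, 3 were in the GermFree duodenum: mouse 3 at the Pou2f3 lead region (31.34 CPM, the others 19.14 to 23.82), mouse 5 at the Dclk1 lead region (29.88 CPM, the others 19.46 to 23.77) and mouse 6 at the Il25 region (12.97 CPM, the others 4.56 to 7.76). GermFree mouse 2 was high at the Il17rb lead region in the ileum (29.77 CPM, the others 16.32 to 21.59) and at the Ptgs1 lead region in the jejunum (9.193 CPM, the others 3.81 to 5.90). ConvR mouse 4 was high at the Alox5ap lead region in the jejunum (18.23 CPM, the others 14.8 to 15.57), and ConvR mouse 5 was low at the Ptgs1 lead region in the colon (5.194 CPM, the others 7.33 to 7.74). None of these is the colon group of Pou2f3 or the ileum group of Alox5ap. The rule looks for a single mouse apart from the rest, so mice that stand apart together can be missed.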

How the results depend on the processing

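Of the log2 differences of named regions under all alternatives, 861 were counted as kept, 9 passed only under the alternative, 101 no longer passed and 1 reversed. Kept meant that the direction and the side of the threshold held. For model differences in the colon the threshold was not used, and kept meant the same direction and a change below the SD within groups. The lost calls of the Pou2f3 lead region given below are therefore not among the 101. The reversed value was that of the Dclk1 region from 55245710 between colon and ileum. It was -0.0046 with GermFree mice alone against 0.22 with both models, and the cause was not tested. Counts of regions called moved with the tool: DESeq2 called 226 between models in the duodenum, 147 in the jejunum, 166 in the ileum and 244 in the colon, 1185 for colon against ileum and 0 for ileum against duodenum. The 1 tuft cell gene region called in the colon, of Pou2f3, became 0 with DESeq2, with mouse number as a replicate block and without ConvR mice 1 and 3, and 0 to 1 with each mouse left out (0 without ConvR mouse 1, ConvR mouse 3 or GermFree mouse 4). Same-numbered libraries of the models had a median correlation of -0.014 over 20 pairs, 1 of them over 0.1. Codes in the titles tie mice 1 to 4 of the models by number but ConvR mouse 5 to GermFree mouse 6, with a median correlation of 0.00251 over 20 pairs and 1 over 0.1. With the code as a block, 337 regions were called in the colon, 1 of them a member, the Pou2f3 region. In the duodenum, jejunum and ileum 255, 225 and 253 regions were called, 0 of them members. The colon comparison chose the genes, so nothing is read from whether the Pou2f3 region was called there under any alternative. Within 20000 bp of the genes, 1 region was called between models in the duodenum, in the ileum and in the summed small intestine, and 1 for colon against duodenum. In the ileum, leaving out each mouse gave 0 to 1 member calls.

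In the comparisons of sections the replicate block was the mouse, the same fit as the blocked fits above. For colon against duodenum, regions called were 0 in ConvR mice alone, 48 in GermFree mice alone and 738 with offsets fitted to abundance. The count was 2336 with the replicate block, and 1324 to 2623 with the block and each mouse left out. Leaving out each mouse without the block gave 17 (without ConvR mouse 5) to 2028 (without ConvR mouse 3). For colon against jejunum they were 1174 in GermFree mice alone, 324 with the replicate block, 84 without ConvR mice 1 and 3, 0 to 376 with each mouse left out, and 0 (without ConvR mouse 4) to 1127 (without ConvR mouse 3) with both. For colon against ileum they were 0 in ConvR mice alone, 1401 in GermFree mice alone, 3447 with the replicate block, 493 (without GermFree mouse 4) to 3223 (without ConvR mouse 3) with each mouse left out, and 1875 to 3868 with both; member calls were 1 in GermFree mice alone, 2 with the replicate block, 1 with the score filter, and 0 to 2 with each mouse left out, blocked or not. Ileum against duodenum gave 0 in either model alone, with the score filter and without ConvR mice 1 and 3, and 0 to 2 with each mouse left out, blocked or not. Variation of the model difference between sections, which draws on the colon values that chose the genes and is not read for them, gave 0 regions, 13 with the replicate block and 1 to 42 when mice were also left out. The counts of 7 to 23 per median region limit small differences.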

Other observations

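Of the 14 regions between 5000 and 20000 bp from the genes, 1 was called between models in the duodenum (of 11 tested, beside 0.463% of all regions) and the same 1 in the ileum (of 12 tested, beside 0.365%). For colon against duodenum 1 other was called (of 14 tested, beside 1.21%). Both were named after their values were seen. The first lies 16553 bp from Alox5ap (chr5:149247605-149248451). In the ileum it had 3.52 to 12.4 CPM in GermFree mice (median 4.00), and 79.9, 5.73, 26.3, 5.00 and 13.3 CPM in ConvR mice. In the duodenum it had 3.16 to 19.7 CPM in GermFree mice (median 5.04), and 54.8, 5.27, 53.8, 6.08 and 9.63 CPM in ConvR mice. The high values in both sections were those of ConvR mice 1 and 3. In the colon GermFree mice had 2.15 to 8.68 CPM, and ConvR mice had 12.3, 3.17, 4.74, 4.03 and 8.03 CPM, with ConvR mouse 3 inside the GermFree range. The log2 difference was -1.91 in the ileum and -1.59 in the duodenum (adjusted p 0.000365 and 0.00798, edgeR), and -0.63 and -0.11 without these mice (adjusted p 1.0 and 0.995). The Il5 region had its high ileum values in the same mice.

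The second lies 16846 bp from Pou2f3 (chr9:43222601-43224993) and was lower in the colon than in the duodenum, with a log2 difference of -0.48 ± 0.12 (SE) and an adjusted p of 0.0196 (edgeR). It averaged 11.2 ± 1.76 CPM in the colon and 14.0 ± 2.30 CPM in the duodenum of GermFree mice, and 11 ± 0.861 CPM in the colon and 17.0 ± 3.52 CPM in the duodenum of ConvR mice. Without ConvR mouse 3 the log2 difference was -0.51 with an adjusted p of 0.0105.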
